A study of Mus musculus with 6 samples.

Results

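The genes described here are 9 transcripts used to find T cells in a tissue: Cd3d, Cd3e, Cd3g, Cd4, Cd8a, Cd8b1, Foxp3, Il1rl1 and Nkg7. They were chosen by symbol, through the NCBI gene identifiers of the read-count table, and are 9 of its 19790 genes. Each was detected in each of the 6 libraries. RNA came from the gonadal white adipose tissue of C57BL/6 wild-type mice, male per the study's methods, that ate a normal chow diet (NCD, n = 3) or a high-fat diet (HFD, n = 3) for 8 weeks. The labels place the start of the diets at 6 weeks of age, and the study's methods give a later age. The labels name no other allele or agent. In the study's methods the wild-type name also covers Tmem86a flox/flox mice without Cre, and the labels do not say which of these was sequenced. The fat pad was sequenced whole, with no sorting of its immune cells.

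T cells recognise antigen through a receptor whose signalling chains are the CD3 proteins, and the co-receptors CD4 and CD8 divide them into helper and cytotoxic cells. Regulatory T cells, defined by the transcription factor FOXP3, are enriched in the visceral fat of lean mice, where many of them carry ST2, the receptor for the cytokine IL-33 encoded by Il1rl1. Obesity is known for bringing macrophages and CD8+ T cells into the fat pad. Several of these transcripts are not exclusive to T cells: Cd4 is also found in some myeloid cells, Il1rl1 in group 2 innate lymphoid cells, mast cells and stromal cells, and Nkg7 in natural killer cells.

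The libraries held 49575113 to 66360046 counts, so that 1 count was worth 0.0151 to 0.0202 CPM, the usual depth-scaled count. They differed in a way that touches every value: 11 genes for seminal vesicle secretions took 58.6%, 11.2% and 2.30% of the counts of NCD replicates 1 to 3 and at most 8 counts of any HFD library. Levels are therefore given as CPM scaled by TMM, a factor fitted to the bulk of the genes, and the comparison was also made without NCD replicate 1. Adipocyte genes were present throughout, with a summed level of 9 genes from 5763 to 29807 CPM, lowest in NCD replicate 1.

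None of the 9 T cell marker genes differed between the diets in the quasi-likelihood test of edgeR, adjusted by Benjamini-Hochberg over all 15241 genes tested, with adjusted p from 0.192 to 0.990. None had an unadjusted p under 0.05 in that test, beside 4524 of the 15241 genes. Without NCD replicate 1 the count was again 0 at both thresholds, with adjusted p from 0.154 to 0.937. The number of all genes under the unadjusted threshold is given for 6 libraries only. Among all genes, 7.47% passed with 6 libraries and 20.9% without NCD replicate 1. DESeq2, which called 25.7% of all genes, called 1 of the 9, Nkg7, and limma called none. Fold changes were of both signs, 5 positive and 4 negative, with a median log2 fold change of 0.42 beside -0.08 over all genes. Without NCD replicate 1 there were 7 positive and 2 negative, with a median of 0.33 beside 0.02. In bulk tissue, fewer cells of a type and less RNA per cell cannot be told apart, and the 95% intervals below allow a 2-fold change in each of these genes.

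**Figure D1:**
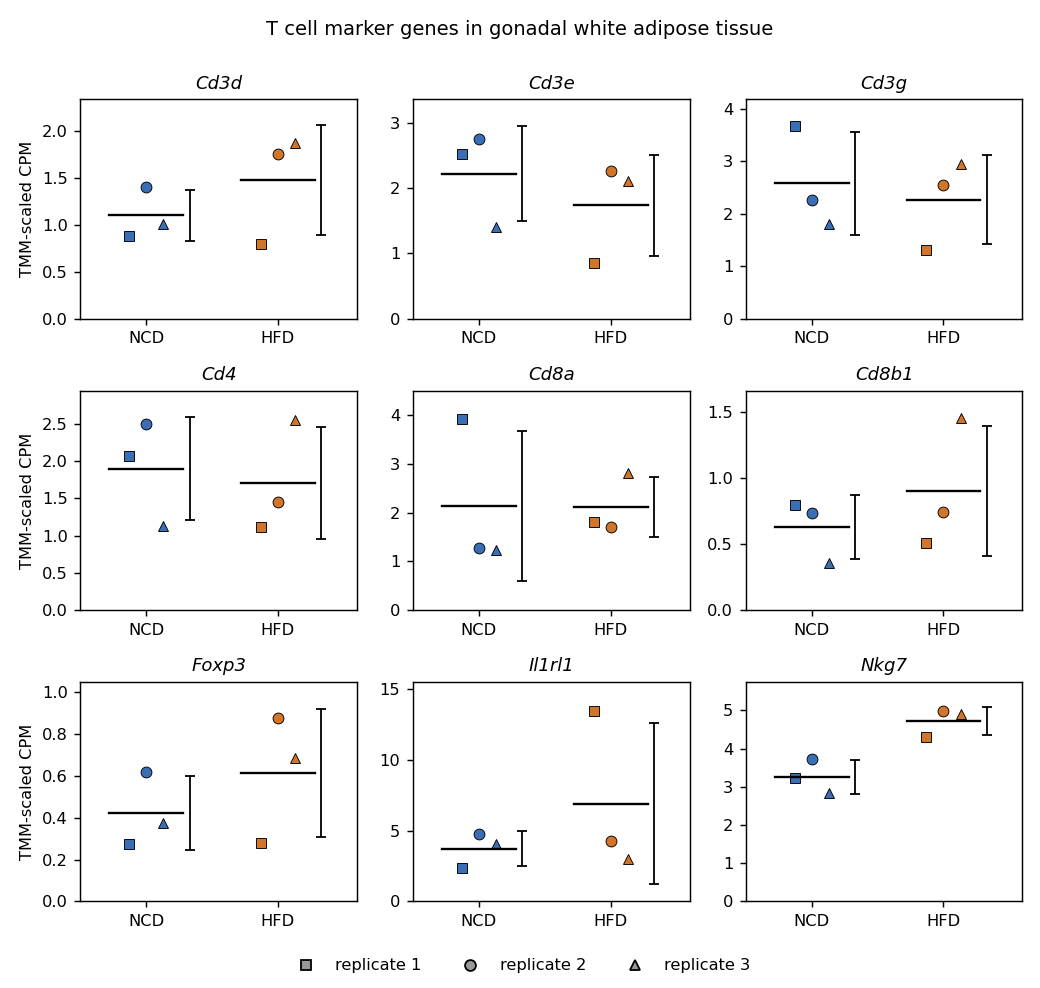
Level of each T cell marker gene (TMM-scaled CPM, axis from 0) in the 3 NCD and 3 HFD libraries. Marker shapes give the replicate, the horizontal line the mean and the bar beside it 1 SD; Nkg7 alone has every HFD library above every NCD library, and Il1rl1 has 1 HFD library, at 13.5, far above the other 5.

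The CD3 chains came first, since every conventional T cell needs them. Cd3g, Cd3d and Cd3e lie in a cluster of 40092 bases on chromosome 9 (RefSeq, GRCm38): Cd3g at chr9:44969572-44980431 on the minus strand, Cd3d at chr9:44981769-44987052 on the plus strand and Cd3e at chr9:44998735-45009663 on the minus strand. Cd3g and Cd3d are transcribed away from each other, with start sites 1338 bases apart. Their upstream sequences are shown because these 3 genes are read below as a unit. The stretches end at the start of the first exon, run 5′ to 3′ in the direction of transcription, and lie at chr9:44980432-44980681 (minus strand), chr9:44981536-44981768 (plus strand) and chr9:45009664-45009861 (minus strand).
Cd3g: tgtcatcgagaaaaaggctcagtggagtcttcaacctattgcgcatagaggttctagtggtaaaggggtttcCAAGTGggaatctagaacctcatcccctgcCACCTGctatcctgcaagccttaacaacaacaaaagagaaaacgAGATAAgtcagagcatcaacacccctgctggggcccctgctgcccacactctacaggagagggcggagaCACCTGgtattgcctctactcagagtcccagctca
Cd3d: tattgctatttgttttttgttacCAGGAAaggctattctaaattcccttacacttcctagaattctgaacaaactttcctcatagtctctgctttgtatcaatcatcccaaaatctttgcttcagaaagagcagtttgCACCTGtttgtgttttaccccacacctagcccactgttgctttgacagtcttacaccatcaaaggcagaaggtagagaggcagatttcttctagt
Cd3e: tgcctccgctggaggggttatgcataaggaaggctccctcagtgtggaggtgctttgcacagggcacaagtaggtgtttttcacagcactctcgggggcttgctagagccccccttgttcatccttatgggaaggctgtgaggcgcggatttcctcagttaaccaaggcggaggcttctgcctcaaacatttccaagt
Capitals mark matches on either strand to an E box (CANNTG), a GATA motif (AGATAA), a RUNX motif (TGTGGT), an ETS motif (CAGGAA) or a TATA box (TATAAA), and no match overlapped another. The Cd3g stretch held 3 E boxes and 1 GATA match, the Cd3d stretch 1 E box and 1 ETS match, and the Cd3e stretch none. In promoter windows of 250 bases before to 50 after a start, an E box was present in 72.3% of all 32851 RefSeq windows, GATA in 11.2%, RUNX in 16.8%, ETS in 30.6% and TATA in 13.6%. The table had 9 windows for 7 of the marker genes and none for Cd4 or Cd8b1. Of these 9 windows, 9 held an E box, 4 GATA, 2 RUNX, 5 ETS and 1 TATA; these are matches of letters and say nothing of binding.

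Cd3e, the epsilon chain shared by every CD3 dimer, had TMM-scaled levels of 2.53, 2.74 and 1.40 CPM in NCD replicates 1 to 3 and of 0.850, 2.25 and 2.1 CPM in HFD replicates 1 to 3, from 49 to 188 counts. The diets overlapped, and the lowest library was HFD replicate 1. Means were 2.22 ± 0.724 and 1.74 ± 0.771 (SD, n = 3 each), a log2 fold change of -0.35 (SE 0.487, 95% interval -1.54 to 0.83, adjusted p = 0.653).
Cd3g, the gamma chain, was at 3.68, 2.26 and 1.81 on NCD and 1.32, 2.54 and 2.95 on HFD. Its highest library was the one richest in seminal vesicle RNA, and its log2 fold change was -0.18 (SE 0.441, 95% interval -1.25 to 0.89) with that library and 0.18 without it.
Cd3d, the delta chain, was at 0.883, 1.40 and 1.00 on NCD and 0.798, 1.75 and 1.87 on HFD. HFD replicates 2 and 3 lay above all NCD libraries and HFD replicate 1 below them, giving a log2 fold change of 0.42 (SE 0.441, 95% interval -0.65 to 1.49).
Summed over the 3 chains, the level was 7.09, 6.41 and 4.21 CPM on NCD and 2.96, 6.55 and 6.92 on HFD. HFD replicate 1 was thus the lowest library for each of the 3 chains, and 4 of the 9 marker genes in all were lowest in it.

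Cd4, the co-receptor of helper and regulatory T cells (chr6:124864693-124888247, minus strand), was at 2.07, 2.49 and 1.14 TMM-scaled CPM on NCD and 1.11, 1.45 and 2.55 on HFD. Both diets spanned nearly the same range, and the log2 fold change was -0.16 (SE 0.470, 95% interval -1.30 to 0.99). Cd8a, the alpha chain of the cytotoxic co-receptor (chr6:71373427-71379171, plus strand), was at 3.93, 1.27 and 1.23 on NCD and 1.80, 1.71 and 2.82 on HFD. NCD replicate 1 was the highest of all 6, so the result depended on it. With it the log2 fold change was -0.01 (95% interval -1.36 to 1.34). Without it the log2 fold change was 0.77 (95% interval -0.14 to 1.69, adjusted p = 0.187). Every HFD library then lay above both remaining NCD libraries. The share of all genes so separated without that library was not computed. Cd8b1, the beta chain that pairs with CD8 alpha on conventional cytotoxic T cells (chr6:71322788-71337492, plus strand), ends 35935 bases before Cd8a. It was at 0.792, 0.736 and 0.354 on NCD and 0.503, 0.743 and 1.45 on HFD, from 19 to 91 counts. Only HFD replicate 3 stood above the NCD range, and the log2 fold change was 0.52 (SE 0.557, 95% interval -0.83 to 1.88).

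Foxp3, the defining factor of regulatory T cells (chrX:7579676-7595243, plus strand), was the scarcest of the 9. Its counts were 9, 37 and 20 on NCD and 16, 73 and 43 on HFD, and the lowest of these, 9, has a 95% Poisson interval of 4.12 to 17.1, which covers counting error only. As TMM-scaled CPM it was at 0.274, 0.619 and 0.372 on NCD and 0.277, 0.875 and 0.685 on HFD. Replicate 1 of each diet was at the bottom, and the other HFD libraries lay above all NCD libraries. The log2 fold change of 0.53 (SE 0.576, 95% interval -0.87 to 1.93, adjusted p = 0.565) did not pass the test. Foxp3 overlaps the long noncoding RNA gene Flicr and the gene Ccdc22, and reads could have been shared among them, since the sources used here do not give the strand setting of the counting.

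Nkg7, a protein of cytotoxic granules in natural killer and CD8+ T cells (chr7:43437138-43438246, plus strand), was the only marker gene whose diets did not overlap. Its counts were 106, 223 and 153 on NCD and 249, 416 and 308 on HFD. As TMM-scaled CPM it was at 3.23, 3.73 and 2.85 on NCD and 4.32, 4.99 and 4.91 on HFD, with means of 3.27 ± 0.443 and 4.74 ± 0.367 (SD, n = 3 each). Every HFD library was above every NCD library, a pattern that 39.2% of all genes tested showed in one direction or the other. The log2 fold change was 0.54 (SE 0.237, 95% interval -0.04 to 1.11, adjusted p = 0.192 by edgeR). DESeq2 gave an adjusted p of 0.0472 for the same gene, and over 15 alternatives the adjusted p ran from 0.0472 to 0.414, with a log2 fold change from 0.43 to 1.05. Without NCD replicate 1 the log2 fold change was 0.54 again, with an adjusted p of 0.154.

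Il1rl1, the IL-33 receptor ST2 (chr1:40404864-40465418, plus strand), behaved unlike the other 8. Its counts were 77, 285 and 219 on NCD and 778, 356 and 190 on HFD, which is 2.34, 4.77 and 4.08 TMM-scaled CPM on NCD and 13.5, 4.27 and 3.03 on HFD. HFD replicate 1 stood at the top and the other HFD libraries lay inside the NCD range. The mean was 3.73 ± 1.25 on NCD and 6.93 ± 5.71 on HFD (SD, n = 3 each), with a log2 fold change of 0.89 (SE 0.627, 95% interval -0.63 to 2.41, adjusted p = 0.378). Without HFD replicate 1 the log2 fold change was -0.03, so that library alone set its direction. HFD replicate 1 was at the same time the lowest library for each CD3 chain.
Il1rl1 has alternative starts for its membrane and soluble forms, which a count per gene adds together. The sequences before the 2 starts in the RefSeq promoter table are shown because they differ in their matches, at chr1:40429320-40429569 and chr1:40439379-40439626, both on the plus strand and with capitals as above. Both stretches lie inside the gene span given above, so neither precedes its outer end. The words upstream and downstream give only their order to each other.
Il1rl1, upstream start: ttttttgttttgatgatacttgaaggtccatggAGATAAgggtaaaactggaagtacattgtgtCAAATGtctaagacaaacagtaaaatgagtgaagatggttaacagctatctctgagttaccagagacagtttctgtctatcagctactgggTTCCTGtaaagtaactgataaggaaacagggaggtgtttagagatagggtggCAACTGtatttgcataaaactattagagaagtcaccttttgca
Il1rl1, downstream start: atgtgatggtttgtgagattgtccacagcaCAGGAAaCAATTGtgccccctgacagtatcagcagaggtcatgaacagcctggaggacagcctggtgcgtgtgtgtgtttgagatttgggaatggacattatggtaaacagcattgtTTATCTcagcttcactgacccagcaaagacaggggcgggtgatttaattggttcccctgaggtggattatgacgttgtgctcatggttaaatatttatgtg
The upstream stretch held 2 E boxes, 1 GATA match and 1 ETS match, and the downstream stretch 1 of each. Il33, the gene for the ligand of ST2, named for that role, was at 13.8, 11.1 and 9.55 CPM on NCD and 10.5, 30.9 and 23.3 on HFD (adjusted p = 0.193). In HFD replicate 1, where the receptor gene was highest, the ligand gene was lowest among the HFD libraries.

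**Figure D2:**
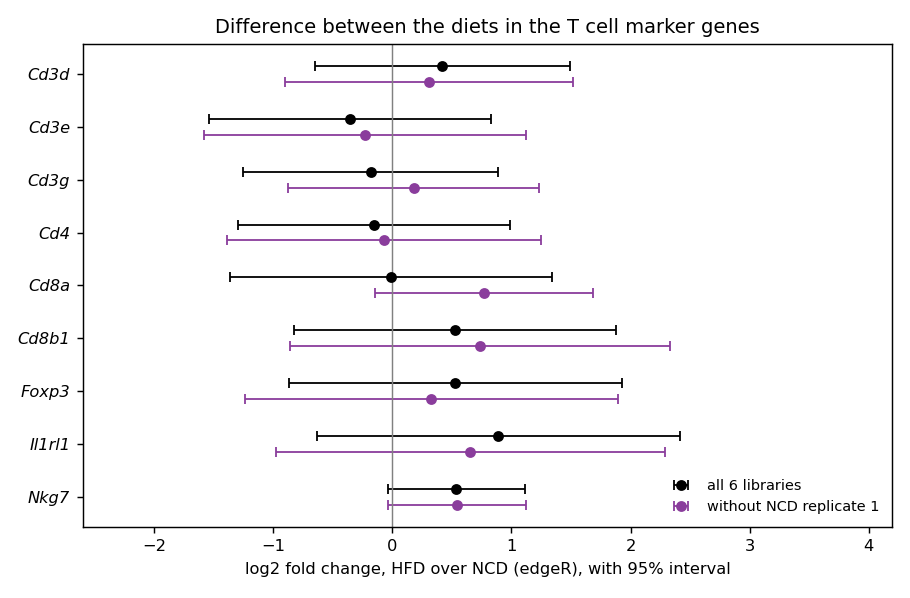
Fitted log2 fold change (HFD over NCD, edgeR) of each T cell marker gene with its 95% interval, for all 6 libraries (black) and without NCD replicate 1 (purple). Every interval includes 0; Nkg7 has the narrowest, from -0.04 to 1.11 with all 6 libraries, and Cd8a moves most when the library is left out, from -0.01 to 0.77.

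Levels of different genes were compared per length, as FPKM, which divides the depth-scaled count by the exon length in kilobases, from the library totals and GENCODE exon lengths, within each library. Nkg7 was above Cd3g, Cd3g above Cd3e and Cd3e above Cd3d in 6 of 6 libraries, and Foxp3 was below Cd8b1 in 6 of 6. The order of the middle ones depended on the diet. On NCD the mean FPKM was 3.20 for Nkg7, 1.98 for Cd3g, 1.27 for Cd3e, 0.608 for Cd3d, 0.514 for Cd4, 0.507 for Il1rl1, 0.485 for Cd8a, 0.342 for Cd8b1 and 0.0949 for Foxp3. On HFD it was 6.61 for Nkg7, 2.75 for Cd3g, 1.48 for Cd3e, 1.21 for Il1rl1, 1.13 for Cd3d, 0.831 for Cd8a, 0.753 for Cd8b1, 0.679 for Cd4 and 0.186 for Foxp3. These means use total counts, which seminal vesicle RNA swells on NCD, so they give an order within a diet and no difference between diets. From Cd3d to Cd8b1 on NCD, and from Cd3e to Cd4 on HFD, each pair of neighbours in the order changed places in at least 1 of 3 libraries. The exon length of Il1rl1, 6836 bases, joins the exons of its alternative transcripts, so its FPKM belongs to no single form.

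The makeup of the T cell transcripts was then compared by ratios of counts within a library, which do not depend on how libraries are scaled. Such ratios do not remove RNA admixed from another tissue. Of 12 ratios, 3 did not overlap between the diets, all higher on HFD and all with Cd3e as denominator. An exact two-sided permutation test of 3 against 3 cannot give a p under 0.1, which these 3 ratios reached, and the value adjusted over the 12 was 0.4. Among all genes with counts in every library, 14.1% had a ratio to Cd3e that was higher in every HFD library than in every NCD library. Not all of the 12 ratios have Cd3e as denominator, so 3 of 12 is not to be set against that share. Cd3d per Cd3e was 0.349, 0.512 and 0.720 on NCD and 0.939, 0.777 and 0.886 on HFD, a difference of 0.78 on the log2 scale. Foxp3 per Cd3e was 0.108, 0.226 and 0.267 on NCD and 0.327, 0.388 and 0.326 on HFD, a difference of 0.89. Nkg7 per Cd3e was 1.28, 1.36 and 2.04 on NCD and 5.08, 2.21 and 2.33 on HFD, a difference of 0.96. In all 3 ratios the NCD values rose from replicate 1 to 3, the reverse of the seminal vesicle share of 58.6%, 11.2% and 2.30%. The part of that RNA in the ratios was not tested. These 3 ratios share 1 denominator. Leaving out a library cannot make separated groups overlap, so only the differences are given for that case. In the order above, the log2 differences were 0.51, 0.49 and 0.84 without NCD replicate 1. Without HFD replicate 1 they were 0.72, 0.93 and 0.58.

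Cytotoxic against helper co-receptor, Cd8a per Cd4, was 1.90, 0.510 and 1.08 on NCD and 1.62, 1.18 and 1.11 on HFD. The diets overlapped (difference 0.34 on the log2 scale, exact permutation p = 0.7), and without NCD replicate 1 they did not (difference 0.79). Cd8b1 per Cd8a was 0.202, 0.579 and 0.288 on NCD and 0.279, 0.434 and 0.514 on HFD, with no separation. Il1rl1 per Foxp3 was 8.56, 7.70 and 10.9 on NCD, a narrow range, and 48.6, 4.88 and 4.42 on HFD. Its direction turned on HFD replicate 1: the log2 difference was 0.18 with it and -0.95 without it. In the latter case both HFD libraries lay below all NCD libraries. The share of all genes separated with a library left out was not computed, for this ratio or for Cd8a per Cd4. Nothing is therefore read from either separation.

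**Figure D3:**
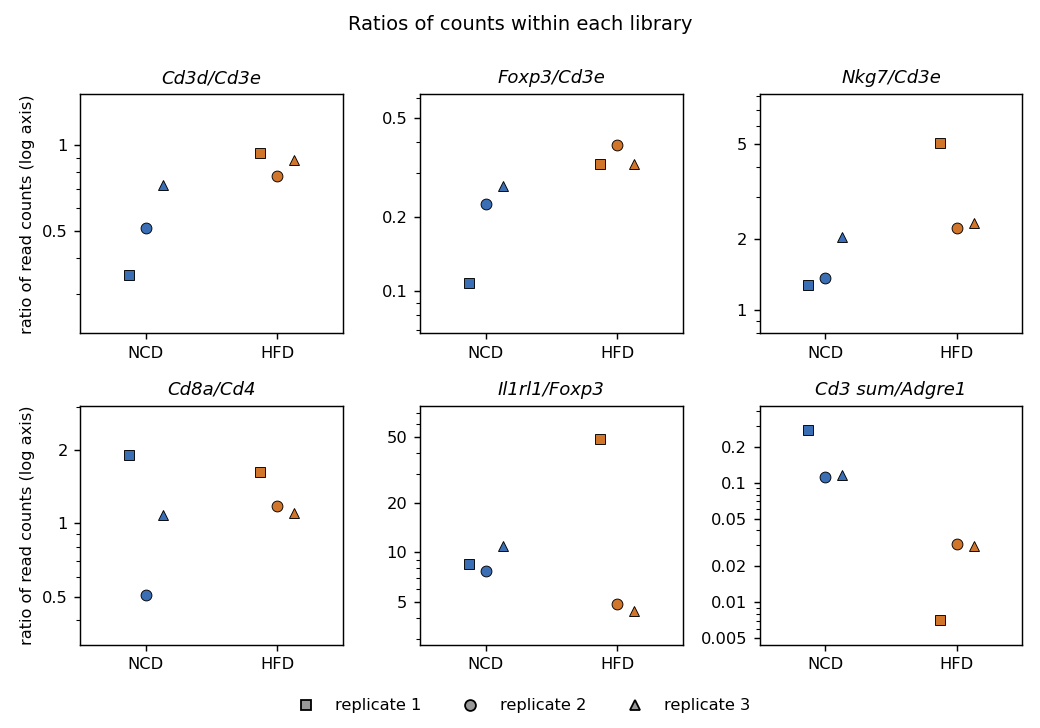
Ratios of read counts of 2 genes within each library (log axis), with marker shapes for replicates. Cd3d, Foxp3 and Nkg7 per Cd3e are higher in every HFD library than in every NCD library, Cd8a per Cd4 overlaps, Il1rl1 per Foxp3 has 1 HFD library at 48.6 above the rest, and the summed Cd3 counts per Adgre1 are lower in every HFD library.

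Counts in the gene lists that follow are to be read against the share called among all genes, 7.47% with 6 libraries and 20.9% without NCD replicate 1. That share covers both directions: with 6 libraries, 850 of the 15241 genes rose and 289 fell. The T cell lists below have 1 to 3 called genes each with 6 libraries, all of which rose. Nothing particular to these lists is read from such small counts. In the list of receptor complex and proximal signalling genes, 2 of 20 tested rose and none fell (median log2 fold change 0.47): Lcp2, the adaptor SLP-76 (log2 fold change 2.38, adjusted p = 0.0245), and Ptprc, the leukocyte common antigen CD45, at 50.1, 80.9 and 61.2 CPM on NCD and 142, 209 and 144 on HFD (1.36, adjusted p = 0.0360). Both are also made by myeloid cells. Of the genes that did not pass, Lck, Zap70 and Cd28 are named here as well, chosen after their values were seen. Lck, the kinase bound to CD4 and CD8, had a log2 fold change of 0.46 (adjusted p = 0.400), and Zap70, the kinase recruited by phosphorylated CD3, one of 0.20 (adjusted p = 0.738). No row was used for the receptor constant segments Trac, Trbc1 and Trbc2. Leaving out NCD replicate 1, 4 of 20 rose, beside 20.9% of all genes called.
Of the co-receptor, costimulation and checkpoint genes, 3 of 24 tested rose and none fell (median 0.59), beside 7.47% of all genes called. Il7r, the IL-7 receptor chain of naive and memory T cells and innate lymphoid cells, was at 3.01, 3.96 and 2.68 CPM on NCD and 98.7, 28.2 and 32.8 on HFD (4.05, adjusted p = 0.0228). It was highest in HFD replicate 1, where the CD3 chains were lowest. Havcr2, the checkpoint TIM-3 of T cells and myeloid cells, rose by 2.21 (adjusted p = 0.0289), and Il2rg, the common gamma chain, by 1.67 (adjusted p = 0.0414). Cd28, the costimulatory receptor of T cells, had a log2 fold change of -0.17 (adjusted p = 0.726). Leaving out NCD replicate 1, 3 of 25 rose and 1, the checkpoint Lag3, fell, no larger a share than the 20.9% of all genes.

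T lineage transcription factors held 1 gene of 15 that rose, Ikzf1, the factor Ikaros (1.67, adjusted p = 0.0290), and none that fell (median -0.09). This share was no larger than the 7.47% of all genes. Without NCD replicate 1, 1 rose and 4 fell, beside 20.9% of all genes. Gata3 and Satb1, both among those that fell, were highest in NCD replicate 1, as were 8 of the 15 factors. Gata3, named after its values were seen, was at 254, 24.1 and 5.66 CPM on NCD and 1.20, 2.42 and 1.58 on HFD, the same order over the NCD libraries as the seminal vesicle share of 58.6%, 11.2% and 2.30%; the part of that RNA in these levels was not tested.
Among genes associated with regulatory T cells and ST2, 2 of 17 tested rose and none fell (median 0.60), beside 7.47% of all genes: Batf, a factor needed by the fat-resident cells, at 0.792, 1.27 and 1.21 CPM on NCD and 3.22, 6.46 and 11.5 on HFD (2.69, adjusted p = 0.0398), and Lrrc32, the TGF-beta docking protein GARP (1.53, adjusted p = 0.0425). Without NCD replicate 1, 5 rose and 2 fell, beside 20.9% of all genes. Cytotoxic and natural killer genes, the company of Nkg7, had 2 of 17 tested that rose and none that fell (median 0.44), again beside 7.47%. Gzma, granzyme A, was at 2.50, 2.79 and 1.90 CPM on NCD and 6.10, 6.69 and 4.69 on HFD (1.28, adjusted p = 0.0494), and Serpinb9, an inhibitor of granzyme B, rose by 1.25 (adjusted p = 0.0355). Klrb1c and Ncr1, receptors of natural killer cells chosen after their values were seen, had log2 fold changes of 0.44 and 0.38 (adjusted p = 0.321 and 0.412). The summed level of the cytotoxic list was 58.2 to 74.3 CPM on NCD and 115 to 125 on HFD. Serpinb9 alone contributed 17.9, 28.6 and 31.3 CPM of this sum on NCD and 66.04, 58.8 and 60.9 on HFD, and 15 of the 17 genes did not pass.

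**Figure D4:**
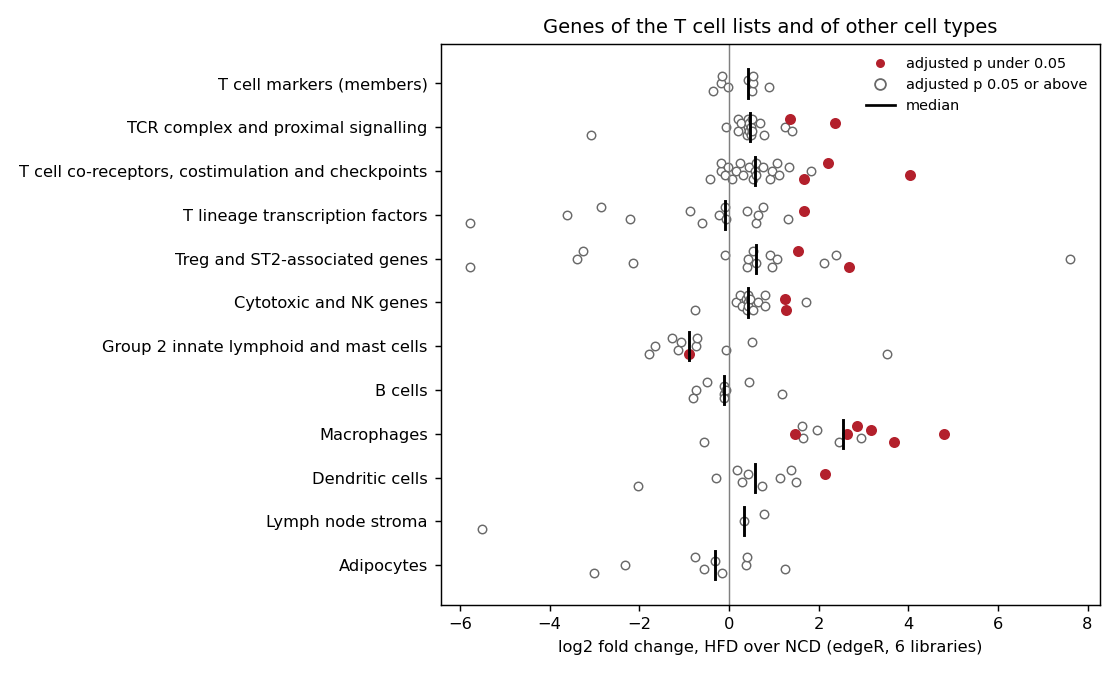
Log2 fold change (HFD over NCD, edgeR, 6 libraries) of each tested gene in the lists; filled points have an adjusted p under 0.05 and the black line is the list median. None of the 9 T cell marker genes is filled, the T cell lists have 1 to 3 filled genes each, and 6 of 12 macrophage genes are filled.

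Genes of other cells in the pad were measured beside them. Of 12 macrophage genes, 6 rose and none fell (median 2.55), beside 7.47% of all genes, led by Gpnmb (4.79, adjusted p = 0.0364), Trem2 (3.68, adjusted p = 0.0235) and Cd68 (3.17, adjusted p = 0.0231), genes of lipid-laden and general macrophages. Their summed level was 842 to 1143 CPM on NCD and 5575, 2955 and 3531 on HFD, highest in HFD replicate 1. Dendritic cell genes had 1 of 10 that rose, Wdfy4 (2.14, adjusted p = 0.0201). Of 11 genes tested for group 2 innate lymphoid and mast cells, which can express Il1rl1, 1 fell, Rora (-0.90, adjusted p = 0.0327), and none rose. The summed level of the list was 73.1, 79.9 and 82.8 CPM on NCD and 62.2, 81.6 and 117 on HFD. Of this sum, Hdc alone, described below, contributed 31.5 and 74.6 CPM in HFD replicates 2 and 3. It contributed at most 3.44 CPM in any other library. The median log2 fold change of the list was -0.90, and 2 of the 11 tested genes were positive. Single genes of the list, chosen after their values were seen, did not share 1 pattern and do not stand for the list. Il13, a cytokine of the lymphoid cells, had 0, 0 and 3 counts on NCD and 9, 13 and 8 on HFD, and Il5, another, had 0, 0 and 4 on NCD and 0, 3 and 7 on HFD; neither was tested. The mast cell protease gene Cpa3 was at 3.65, 3.98 and 1.64 CPM on NCD and 3.05, 0.875 and 0.526 on HFD, so that HFD replicate 1 was the highest HFD library and lay inside the NCD range. Hdc, the histamine-forming enzyme, was at 2.71, 3.24 and 3.44 CPM on NCD and 2.98, 31.5 and 74.6 on HFD (3.53, adjusted p = 0.0884 by edgeR, 0.00102 by DESeq2). The part of these cells in the Il1rl1 level was not tested. None of 9 B cell genes or 3 lymph node stroma genes passed, with Glycam1 and Madcam1 at 0 in some libraries, and none of 9 adipocyte genes did. Without NCD replicate 1, 4 adipocyte genes fell, beside 20.9% of all genes called, among them Cfd, Retn and Lipe. The calls in all these lists depended on which libraries were used. With 6 libraries 18 genes passed, and without NCD replicate 1 there were 39. None passed when NCD replicate 2, NCD replicate 3 or any 1 HFD library was left out. Among all genes tested, 1139 passed with 6 libraries, 3234 without NCD replicate 1 and 2 to 7 without any 1 other library.

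Set against the leukocyte gene Ptprc, each of the 9 T cell marker genes had a lower mean log2 ratio on HFD (median -1.01), and 6 did not overlap between the diets. This ratio was chosen after the data were seen, and 72.7% of all genes had a ratio to Ptprc that was lower in every HFD library, so the share of 6 of 9 is near the background. Summed Cd3 counts per count of the macrophage gene Adgre1 were 0.278, 0.112 and 0.116 on NCD and 0.00709, 0.0311 and 0.0297 on HFD, 8.21-fold lower (log2 difference -3.04, exact permutation p = 0.1, the smallest possible). The log2 difference was -2.61 without NCD replicate 1 and -2.34 without HFD replicate 1. For 93.3% of all genes the ratio to Adgre1 was lower in every HFD library, and Adgre1 itself had a log2 fold change of 2.86 (adjusted p = 0.0238), while the CD3 chains had log2 fold changes from -0.35 to 0.42.

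The genes whose pattern over the 6 libraries was most like the mean of the CD3 chains were found by the root-mean-square difference of centred log2 levels. The closest was Tespa1, a signalling protein of thymocytes and T cells, with a difference of 0.104, beside a median of 0.630 over all genes. It was at 0.853, 0.853 and 0.689 CPM on NCD and 0.399, 0.971 and 1.07 on HFD. The other nearest genes, at 0.153 to 0.194, were Isyna1, Xbp1, Il18bp, Snord47, Fbxo17, Nudt17, Sema4b, Morn2 and Tnfsf8, the last of which encodes the CD30 ligand. Among the marker genes themselves the distances were 0.213 for Cd3e, 0.228 for Cd3g, 0.299 for Cd4, 0.320 for Cd3d, 0.417 for Cd8b1, 0.463 for Foxp3, 0.471 for Nkg7, 0.614 for Cd8a and 1.18 for Il1rl1. Cd3d, Cd3e and Cd3g enter the mean they are set against, and with 6 libraries such distances are descriptions only. Nearest to Il1rl1, a search added after the data were seen, were Gpr34, a receptor of microglia and macrophages (0.177), Mfap2, of elastic microfibrils (0.227), Thsd7b (0.235), Nusap1, of the mitotic spindle (0.259), and Mamdc2 (0.285). Lum, the collagen-binding proteoglycan lumican, was also among the 10 nearest (0.291). Each of the 10 was highest in HFD replicate 1, which follows from choosing them by likeness to Il1rl1.

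**Figure D5:**
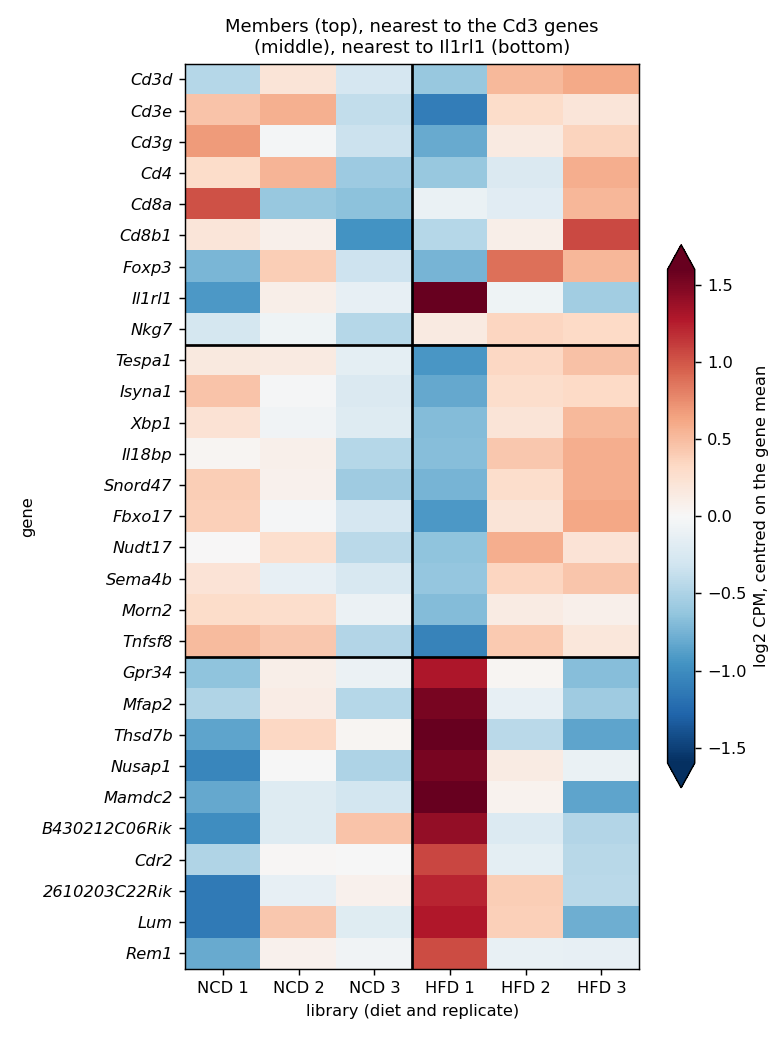
Log2 CPM centred on each gene's mean over the 6 libraries (colour), for the 9 T cell marker genes (top), the 10 genes nearest to the mean of the CD3 chains (middle) and the 10 nearest to Il1rl1 (bottom). HFD replicate 1 is the lowest column for the CD3 chains and their nearest genes and the highest for Il1rl1 and its nearest genes. The nearest genes were chosen by this likeness.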

How the data were processed

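RNA sequencing counts were analysed for 6 libraries, 3 mice per diet, prepared with a TruSeq Stranded mRNA kit per the labels. The submitters' processing notes name bcl2fastq 2.20.0, Trimmomatic, HISAT2 2.1.0, StringTie 1.3.4d, DESeq2 and the builds mm10 and GRCm38; the sources used here do not state the counting settings. The authors deposited raw read counts per NCBI gene, not normalized, for 19790 identifiers, of which 19742 had a symbol in the RefSeq GRCm38.p6 table and 17793 an exon length in GENCODE. The count columns were matched to samples by their names; the third HFD replicate's column carries the number 4.

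Groups followed the sample titles. Genes were filtered (filterByExpr, minimum count 10 and total 15), scaled by TMM and tested with edgeR 4.0.16 (R 4.3.3; quasi-likelihood, threshold 0.05). The standard error is the log2 fold change over the square root of F. Fold changes were fitted with DESeq2 1.42.0 and limma 3.58.1 (pseudocount 1) as alternatives, beside other filters and scalings, a replicate block and each library left out. The ratios to Ptprc and Adgre1 and the search around Il1rl1 were added after the data were seen. FPKM and ratios were computed from the counts with Python 3.11.15. Depth limits these genes to 9 to 778 counts; intervals of single counts cover counting error only.

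The 9 genes and the gene lists were chosen with earlier results of these data known. Named were these 9, up to 3 genes with the largest log2 fold change among those passing in each list (with 6 libraries or, where none passed, without NCD replicate 1) and the 10 genes nearest to the mean CD3 profile; other names are said in the text to be chosen later or named for a role, or belong to a count. No libraries matched within sampling noise. The values of 1 listed gene are not reported here.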

Additional observations from a re-analysis of the deposited data

How the results depend on the processing

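No T cell marker gene passed under edgeR or limma in any setting tried, and DESeq2 called 1. The genes passing in the other lists (18 with edgeR) were 45 with DESeq2, 0 with the replicate block, and 0 to 39 when libraries were left out. Same-numbered libraries did not deviate together (correlations of -0.044, -0.037 and 0.0044), so the block is only an alternative; it left 12 genes called of 1139. DESeq2 called 3904 genes and limma 1167. Leaving out NCD replicate 1 gave 3234 calls, and leaving out any other library gave 2 to 7. Cd3d, Cd8b1, Foxp3 and Nkg7 were positive in each setting that tested them; Cd8b1 and Foxp3 were not tested with a mean of at least 1 CPM.

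Scaling by total counts alone raised the median log2 fold change of all genes by 0.52 and turned Cd3e to 0.22, Cd3g to 0.48, Cd4 to 0.40 and Cd8a to 0.77. Cd8a, at -0.01, was also 0.013 with no filter, 0.014 with upper-quartile scaling, 0.021 with the seminal vesicle genes removed, 0.074 with limma and 0.18 with the replicate block. With single libraries left out, the log2 fold change ran from -0.40 to 0.18 for Cd3g, from -0.55 to 0.089 for Cd4, from -0.28 to 0.77 for Cd8a and from -0.027 to 1.26 for Il1rl1. The log2 ratio differences ran from -0.026 to 0.39 for Cd3g per Cd3e, from -0.04 to 0.72 for Cd8b1 per Cd8a, from -0.16 to 0.79 for Cd8a per Cd4, from -0.022 to 1.71 for Il1rl1 per Cd3e, from -0.95 to 0.78 for Il1rl1 per Foxp3 and from -0.18 to 0.73 for Nkg7 per Cd8a. The causes were not tested.

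The limits are 3 mice per diet, low counts in every marker gene, and 1 NCD library in which 58.6% of counts were seminal vesicle transcripts.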
